A study of Rattus norvegicus with 6 samples.

Results

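The genes described here are 10 genes of oxidant defence and glutathione synthesis, listed by name: Nfe2l2, Keap1, Nqo1, Gclc, Gclm, Srxn1, Sod1, Sod2, Cat and Prdx1. Of these, 9 had a row under their symbol among the 25926 features of the expression table, and all 9 averaged 1 FPKM or more over the rats and were tested. The expression of Srxn1 was not analysed here. RNA-seq of liver was compared between 3 rats on TPN, total parenteral nutrition, which feeds through a vein and bypasses the gut, for 7 days and 3 control rats given 0.9% saline. The strain was Sprague-Dawley and the labelled age 4 weeks in both groups. The TPN rats carried the disease label PNALD (parenteral nutrition-associated liver disease) and the controls the label normal. FPKM is the number of fragments scaled by transcript length and by the mapped fragments of the library, so levels of different genes can be compared per length.

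NRF2, the product of Nfe2l2, is a transcription factor that KEAP1 binds and marks for breakdown. When oxidants or reactive chemicals modify KEAP1, NRF2 builds up in the nucleus and raises genes for glutathione synthesis, quinone reduction and thiol repair. NRF2 is controlled largely as a protein, so the level of its mRNA does not measure its activity. Hepatocytes are rich in superoxide dismutases, which turn superoxide into hydrogen peroxide, and in catalase and peroxiredoxins, which remove that peroxide. They also make glutathione and release it to blood and bile.

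In TPN liver, Nqo1 was higher and Sod1 lower than in control liver without overlap between the rats, while the other 7 genes overlapped. None of the 9 genes passed the threshold, a p from limma under 0.05 after Benjamini-Hochberg adjustment, which 0.246% of the 11362 features passed (0.0264% higher and 0.22% lower in TPN). That share moves with single rats, from 0 features without TPN 3 to 46 without control 2, against 28 with all rats. At an unadjusted p under 0.05 there were 2 of the 9 genes, Nqo1 higher and Sod1 lower, beside 11.4% of all features (4.44% higher and 7.01% lower). The 2 genes without overlap, 1 in each direction, compare with 17.1% of all features. Log2 fold changes were positive for 3 genes and negative for 6, with a median of -0.18, beside a median of 0.0065 over all features. Among the TPN rats, Gclc, Gclm, Cat and Prdx1 differed up to 4.48-, 3.92-, 3.25- and 2.44-fold, more than the group means did.

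**Figure D1:**
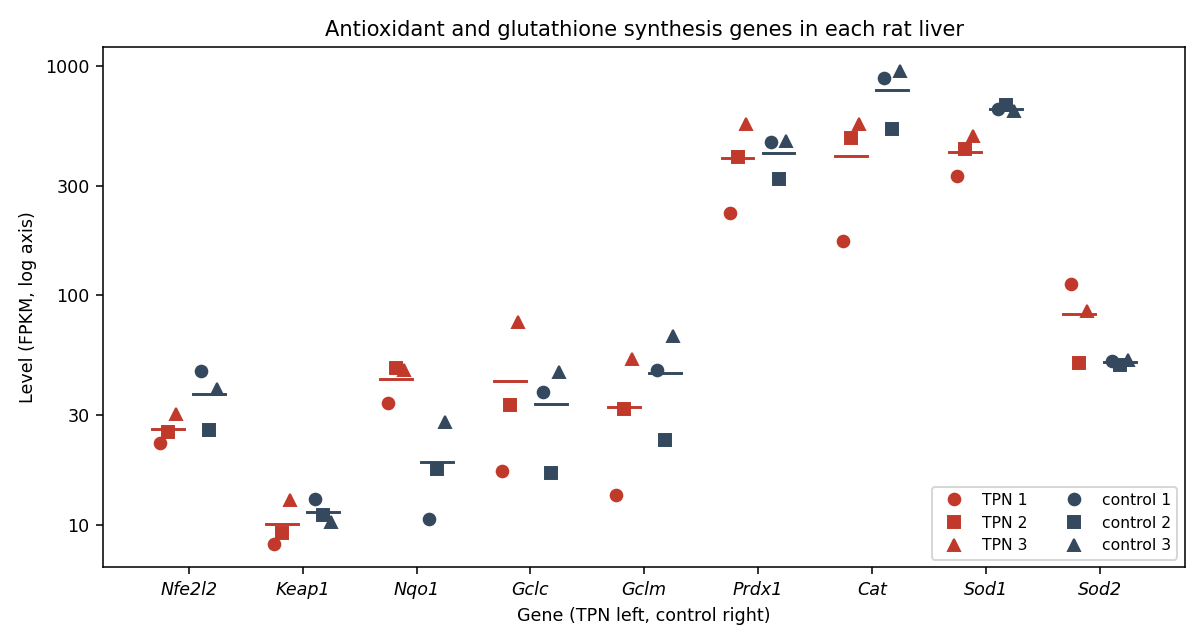
FPKM of the 9 genes in each rat on a log axis, with TPN rats in red on the left and control rats in dark blue on the right of each gene, and a bar at the group mean (n = 3 each). Nqo1 was higher and Sod1 lower in all 3 TPN rats than in any control rat, and the rats overlapped in the other 7 genes.

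Pearson correlations of log2(FPKM + 1) across features ran from 0.942 to 0.968 among TPN rats, from 0.961 to 0.981 among control rats and from 0.920 to 0.961 between the groups. The hepatocyte marker Alb, albumin, stood at 12828 to 39337 FPKM in TPN rats and 32506 to 48388 FPKM in control rats. Of 13 measured acute-phase genes, which the liver raises during inflammation, 12 had positive log2 fold changes, with a median of 1.16. None passed the threshold, and 1, Lbp, was higher without overlap, beside 8.02% of all features. Lbp passed without control 2, a fit in which 46 of all features passed. With TPN 1 and control 2 both left out, 7 of the 13 passed, beside 121 of all features. The mean log2(FPKM + 1) of the 13 genes was 11.4, 9.97 and 9.47 in TPN 1, 2 and 3, against 7.83, 10.1 and 8.20 in control 1, 2 and 3. TPN 1 and control 2 thus held the highest value of their groups. Leaving out control 2 therefore widens the difference by itself, and these calls are no separate support for it. Nothing in the labels says whether the libraries were prepared in batches, and the depth of each library is unknown.

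By level, Sod1, Cat and Prdx1 formed the upper tier in both groups. In TPN liver Sod1 averaged 421 FPKM, Cat 405 FPKM and Prdx1 395.5 FPKM, and their ranges over the 3 rats overlapped. In control liver Cat averaged 788 FPKM, Sod1 651 FPKM and Prdx1 419 FPKM, and only the Cat and Sod1 ranges overlapped. By group mean, Sod2 came next in both groups, with 82.7 ± 30.9 FPKM in TPN and 51.1 ± 1.31 FPKM in control (SD, n = 3 each). Its range over the 3 rats overlapped those of Gclc and Gclm in TPN and that of Gclm in control. The lower tier changed its order. In TPN it ran from Nqo1 (43.1 FPKM) over Gclc (42.3), Gclm (32.7) and Nfe2l2 (26.2) to Keap1 (10.1), and in control from Gclm (45.6) over Nfe2l2 (37.3), Gclc (33.7) and Nqo1 (18.7) to Keap1 (11.4). Neighbours between Nqo1 and Nfe2l2 overlapped in both orders.

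Nfe2l2 and Keap1, the factor and its repressor, both had negative log2 fold changes with intervals that hold 0. Nfe2l2 (ENSRNOG00000001548) measured 22.7, 25.5 and 30.4 FPKM in TPN 1, 2 and 3, against 46.9, 25.9 and 39.1 FPKM in control 1, 2 and 3. All 3 TPN rats lay below control 1 and control 3, and TPN 3 lay above control 2. Its log2 fold change was -0.46 (SE 0.24, 95% interval -1.02 to 0.098, limma adjusted p = 0.514). Keap1 (ENSRNOG00000020878) measured 8.27, 9.18 and 12.87 FPKM in TPN 1, 2 and 3, against 12.94, 11.03 and 10.3 FPKM in control 1, 2 and 3. The groups overlapped throughout, and the log2 fold change was -0.18 (SE 0.19, 95% interval -0.62 to 0.27, limma adjusted p = 0.785). The ratio of Keap1 to Nfe2l2 within a rat was 0.365, 0.360 and 0.424 in TPN 1, 2 and 3, against 0.276, 0.426 and 0.263 in control 1, 2 and 3. Control 2 held the highest ratio of the 6 and the groups overlapped. On the log2 scale the ratio differed by 0.28 (two-sided exact permutation test p = 0.4, and 0.4 adjusted over the 2 ratios tested).

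Other genes that act on NRF2 had log2 fold changes on both sides of 0. Of 15 listed partners, repressors and degraders, 13 were tested, with 6 positive and 7 negative log2 fold changes and a median of -0.011. None passed the threshold and none separated the groups. Mafg, a small MAF protein that pairs with NRF2 on DNA, had a log2 fold change of -0.26 (limma adjusted p = 0.613). Crebbp, a coactivator, had 0.18 (limma adjusted p = 0.689). Gsk3b, a kinase that marks NRF2 for breakdown, had -0.18 (limma adjusted p = 0.706). Sqstm1, the autophagy receptor p62 that binds KEAP1, measured 123.5 FPKM in TPN 1, 261 and 247 FPKM in TPN 2 and 3, and 234 to 258 FPKM in the controls.

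Nqo1 (ENSRNOG00000012772), a quinone reductase widely used as a readout of NRF2, was the member with the largest log2 fold change. It measured 33.9, 48.2 and 47.1 FPKM in TPN 1, 2 and 3, against 10.6, 17.6 and 28.02 FPKM in control 1, 2 and 3. Every TPN rat lay above every control rat, and the control rats spread over 2.65-fold. Means were 43.1 ± 7.999 FPKM in TPN and 18.7 ± 8.78 FPKM in control (SD, n = 3 each), a 2.30-fold difference. The log2 fold change was 1.24 (SE 0.33, 95% interval 0.47 to 2.01, unadjusted p = 0.00598, limma adjusted p = 0.231). It ranged from 0.91 without control 1 to 1.57 without control 3, and Nqo1 passed the threshold in none of the 19 alternative fits, with limma adjusted p from 0.122 to 0.706. Of all features tested, 2.56% had a smaller p.

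Genes whose pattern over the 6 rats was most like that of Nqo1 were Trmt112, Sde2, Rpl17, Imp3 and Rps27a. Their Pearson correlations of log2(FPKM + 1) with Nqo1 were 0.987, 0.974, 0.968, 0.967 and 0.966 over the 6 rats, picked from 6362 candidate features, and are a description only. Trmt112, a methyltransferase cofactor, varied far less, with 32.4, 34.7 and 34.4 FPKM in TPN 1, 2 and 3 and 28.5, 29.4 and 31.9 FPKM in control 1, 2 and 3. Rps27a, a ribosomal protein fused to ubiquitin, measured 233, 262 and 302 FPKM in TPN 1, 2 and 3, against 69.6, 138 and 144 FPKM in control 1, 2 and 3. Its reads, like those of Rpl17, can be shared with pseudogene copies, so these levels are uncertain. None of the 5 passed the threshold.

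Other genes that NRF2 is known to raise mostly had negative log2 fold changes, unlike Nqo1. Of 32 listed, 28 had a row and 26 were tested, of which 23 had a log2 fold change below 0, as had 49.1% of all features. The list mean of log2(FPKM + 1) was 4.29, 4.76 and 5.17 in TPN 1, 2 and 3. It was 5.54, 5.11 and 5.38 in control 1, 2 and 3, so TPN 3 lay above control 2. The median log2 fold change of the 26 genes was -0.52. None passed the threshold, and 6 had an unadjusted p under 0.05, all lower in TPN, beside 7.01% of all features. In 4 of them, Abcc2, Abcc3, Osgin1 and Ephx1, every TPN rat lay below every control rat, beside 9.09% of all features.

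Abcc3, an exporter of conjugates to blood, measured 0.855, 0.752 and 1.49 FPKM in TPN 1, 2 and 3, against 3.12, 3.75 and 3.04 FPKM in control 1, 2 and 3. On the log2 scale the difference was -1.10 (SE 0.18, 95% interval -1.51 to -0.69, limma adjusted p = 0.0751). Abcc2, which exports glutathione and bilirubin conjugates to bile, measured 45.1, 43.8 and 45.3 FPKM in TPN 1, 2 and 3, against 169, 85.1 and 97.95 FPKM in control 1, 2 and 3 (log2 fold change -1.31, limma adjusted p = 0.137). The TPN rats were nearly equal and control 1 stood highest. Osgin1, an oxidative stress-induced growth inhibitor, measured 48.3, 32.5 and 52.6 FPKM in TPN 1, 2 and 3, against 182, 72.7 and 85.01 FPKM in control 1, 2 and 3 (log2 fold change -1.24, limma adjusted p = 0.275). Gsta3, a glutathione transferase whose near-identical relatives can share its reads, measured 3.37, 6.46 and 34.4 FPKM in TPN 1, 2 and 3, against 66.03, 24.6 and 57.1 FPKM in control 1, 2 and 3 (log2 fold change -2.14, limma adjusted p = 0.399). TPN 3 lay above control 2.

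The 3 positive genes among the 26 tested were Hmox1, Cbr1 and Fth1, named after their values were seen. Hmox1, the inducible heme oxygenase, measured 59.9, 37.4 and 52.3 FPKM in TPN 1, 2 and 3, against 14.02, 97.8 and 14.5 FPKM in control 1, 2 and 3. Control 2 held the highest value of the 6 rats and the other controls the lowest. Without control 2, Hmox1 was the 1 gene of the list past the threshold, and it passed also with TPN 1 and control 2 both left out. Both fits leave out the highest Hmox1 value, that of a control rat, which by itself widens the difference. Fth1, the ferritin heavy chain, was higher in TPN without overlap, with 1114 to 1225 FPKM against 986 to 1021 FPKM in control (log2 fold change 0.24, limma adjusted p = 0.725). It was the 1 gene of the 26 that was higher without overlap, beside 8.02% of all features. Cbr1, a carbonyl reductase, had a log2 fold change of 0.37 (limma adjusted p = 0.486). Both listed genes below 1 FPKM, Cbr3 and Slc7a11, were positive too, so that without the filter 5 of 28 were positive and the median was -0.40. Slc7a11, the cystine importer that feeds glutathione synthesis, measured 0.303, 0.717 and 0.331 FPKM in TPN 1, 2 and 3, and was listed at 0, 0.0189 and 0.00727 FPKM in control 1, 2 and 3. It was higher in TPN without overlap, at levels too low to be tested here.

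Gclc and Gclm encode the catalytic and the modifier subunit of glutamate-cysteine ligase, the first step of glutathione synthesis. Both varied among rats of one group more than 96.7% of the features averaging 5 FPKM or more. Gclc (ENSRNOG00000006302) measured 17.1, 33.2 and 76.6 FPKM in TPN 1, 2 and 3, against 37.9, 16.9 and 46.3 FPKM in control 1, 2 and 3. TPN 1 and control 2 were similarly low, TPN 3 was highest, and the groups overlapped. Its log2 fold change was 0.18 (SE 0.59, 95% interval -1.24 to 1.60, limma adjusted p = 0.945). The sign turned without TPN 3 (-0.36) and without control 2 (-0.24). Gclm (ENSRNOG00000013409) measured 13.4, 31.98 and 52.6 FPKM in TPN 1, 2 and 3, against 47.1, 23.4 and 66.4 FPKM in control 1, 2 and 3. TPN 1 and control 2 were again the lowest of their groups. Its log2 fold change was -0.54 (SE 0.56, 95% interval -1.87 to 0.78, limma adjusted p = 0.769). It ran from -0.98 without TPN 3 to -0.030 without TPN 1.

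The ratio of the subunits within a rat separated the groups. Gclm over Gclc was 0.784, 0.963 and 0.687 in TPN 1, 2 and 3, against 1.24, 1.38 and 1.44 in control 1, 2 and 3. Gclm stood below Gclc in all 3 TPN rats and above it in all 3 control rats. The log2 ratio averaged -0.32 ± 0.25 in TPN and 0.43 ± 0.11 in control (SD, n = 3 each), a difference of -0.75. A two-sided exact permutation test gave p = 0.1, the smallest that 3 against 3 rats allow, and 0.2 adjusted over the 2 ratios tested. The difference ran from -0.64 without TPN 3 to -0.88 without TPN 2. A ratio within a library does not depend on how the library was scaled.

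**Figure D2:**
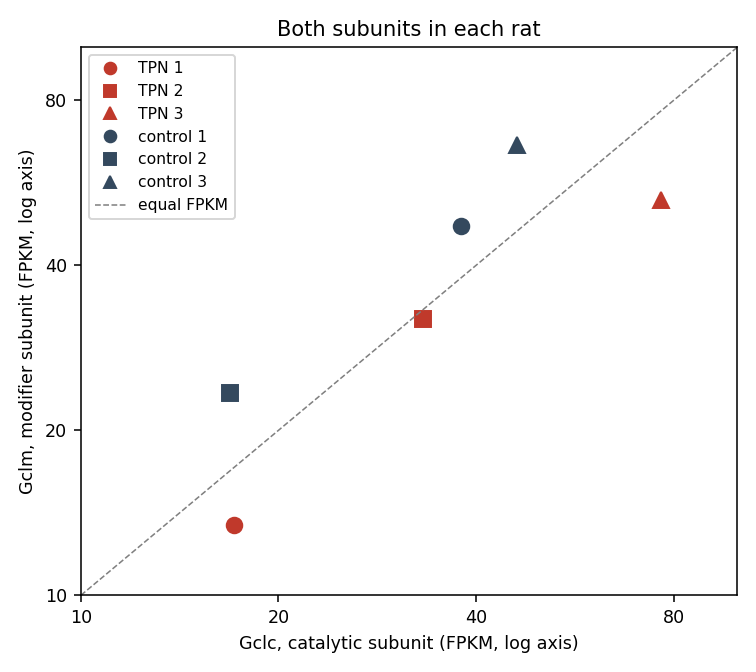
Gclm against Gclc in FPKM in each rat, both on log axes, with TPN rats in red and control rats in dark blue, and a dashed line where both are equal. The 3 control rats lie above the line and the 3 TPN rats below it, TPN 2 close to it with a ratio of 0.963.

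NRF2 binds the antioxidant response element, so the 250 bases before the start of each gene were searched for its core on both strands, spelled TGACNNNGC or TGAGNNNGC. Sequences are from RefSeq, build GRCr8, in which all 10 listed genes matched by symbol. At least 1 match was present in 4 of the 10 windows (Gclm, Srxn1, Prdx1 and Sod2), and in 22.8% of 33469 windows of all genes. Shown are Nqo1, whose level differed most, the subunit pair Gclc and Gclm, and Prdx1. Each reads 5′ to 3′ on the strand of the gene, with the match in capitals.
Nqo1 (chr19:52220268-52220517, minus strand): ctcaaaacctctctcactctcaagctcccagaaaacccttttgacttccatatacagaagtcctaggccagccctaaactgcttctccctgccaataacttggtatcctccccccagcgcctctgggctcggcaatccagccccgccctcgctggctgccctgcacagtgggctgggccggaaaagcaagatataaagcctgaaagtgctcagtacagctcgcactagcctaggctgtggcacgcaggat
Gclc (chr8:87510226-87510475, plus strand): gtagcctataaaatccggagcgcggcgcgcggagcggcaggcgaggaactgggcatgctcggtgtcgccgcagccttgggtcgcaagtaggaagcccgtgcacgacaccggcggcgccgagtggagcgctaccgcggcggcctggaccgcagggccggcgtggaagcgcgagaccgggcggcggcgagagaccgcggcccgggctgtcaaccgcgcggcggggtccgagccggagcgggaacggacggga
Gclm (chr2:213031885-213032134, plus strand): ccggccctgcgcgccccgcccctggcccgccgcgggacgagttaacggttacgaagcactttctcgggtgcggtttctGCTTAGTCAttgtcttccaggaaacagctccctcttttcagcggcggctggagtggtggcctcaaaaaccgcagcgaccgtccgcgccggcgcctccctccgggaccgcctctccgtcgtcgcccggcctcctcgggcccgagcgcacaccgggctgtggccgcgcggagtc
Prdx1 (chr5:135383656-135383905, plus strand): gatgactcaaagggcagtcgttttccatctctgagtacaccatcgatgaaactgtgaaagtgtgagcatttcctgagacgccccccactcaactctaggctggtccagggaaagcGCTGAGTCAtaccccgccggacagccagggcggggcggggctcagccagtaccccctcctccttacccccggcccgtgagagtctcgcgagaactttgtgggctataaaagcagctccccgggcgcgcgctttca
The Gclm match lay 172 to 164 bases and the Prdx1 match 135 to 127 bases before the start, both as the reverse complement of TGACNNNGC. The Prdx1 match also holds TGAGTCA, the site of AP-1 factors, and the Gclm match does not. No match was found in the Nqo1 and Gclc windows, which says only that these letters do not occur there.

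Genes of glutathione handling beyond the ligase were mixed. Of 20 listed, 18 were tested, with 7 positive and 11 negative log2 fold changes and a median of -0.095. None passed, and 2 were higher and 1 lower without overlap, beside 8.02% and 9.09% of all features. Gpx1, the main cytosolic glutathione peroxidase and a selenoprotein, measured 219.5, 225 and 264 FPKM in TPN 1, 2 and 3, against 905, 399 and 654 FPKM in control 1, 2 and 3. All TPN rats lay below all controls (log2 fold change -1.39, SE 0.31, limma adjusted p = 0.172). Chac1, which breaks glutathione down, measured 3.43, 27.4 and 1.13 FPKM in TPN 1, 2 and 3, against 0.256, 0.745 and 0.440 FPKM in control 1, 2 and 3 (log2 fold change 2.14, limma adjusted p = 0.452). TPN 2 stood far above the others. Glrx2, a mitochondrial glutaredoxin, measured 29.7 to 31.04 FPKM in TPN and 20.2 to 27.9 FPKM in control (log2 fold change 0.38, limma adjusted p = 0.463). Slc25a39, a mitochondrial carrier that brings in glutathione, had a log2 fold change of -0.37 (limma adjusted p = 0.498). Gss, the second enzyme of synthesis, measured 26.8, 32.3 and 28.7 FPKM in TPN 1, 2 and 3, against 26.9, 22.4 and 29.998 FPKM in control 1, 2 and 3. It was named after its values were seen, and the groups overlapped.

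Catalase and Prdx1 remove hydrogen peroxide, the first in peroxisomes and the second mainly in the cytosol. Cat (ENSRNOG00000008364) measured 172, 485 and 559 FPKM in TPN 1, 2 and 3, against 885, 528 and 949.5 FPKM in control 1, 2 and 3. All TPN rats lay below control 1 and control 3, and TPN 3 lay above control 2. Means were 405 ± 205 FPKM in TPN and 788 ± 227 FPKM in control (SD, n = 3 each). The log2 fold change was -1.08 (SE 0.47, 95% interval -2.18 to 0.023, limma adjusted p = 0.443), and -0.55 without TPN 1. With TPN 1 and control 2 both left out it was -0.81 without overlap (limma adjusted p = 0.109, and 0.109 to 0.977 over the 19 alternatives). Smaller groups separate more easily by chance, and the share of all features without overlap in that fit was not counted. Prdx1 (ENSRNOG00000017194) measured 229, 399.7 and 558 FPKM in TPN 1, 2 and 3, against 465, 322 and 469 FPKM in control 1, 2 and 3. The groups overlapped, with TPN 1 lowest and TPN 3 highest of the 6. Its log2 fold change was -0.15 (SE 0.35, 95% interval -0.96 to 0.65, limma adjusted p = 0.917), and 0.19 without TPN 1.

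Of 17 listed genes of the peroxiredoxin and thioredoxin system, all tested, 5 were positive and 12 negative, with a median of -0.16, and none passed. Without overlap, 1 was higher and 3 lower, beside 8.02% and 9.09% of all features. Sesn1 and Sesn2 encode sestrins, a family of stress proteins, and differed in opposite directions. Sesn1 measured 4.94, 5.43 and 4.42 FPKM in TPN 1, 2 and 3, against 8.29, 6.46 and 7.58 FPKM in control 1, 2 and 3 (log2 fold change -0.51, limma adjusted p = 0.288). Sesn2 measured 4.96, 9.34 and 4.08 FPKM in TPN 1, 2 and 3, against 3.56, 3.43 and 3.08 FPKM in control 1, 2 and 3 (log2 fold change 0.64, limma adjusted p = 0.403). Prdx4, the peroxiredoxin of the endoplasmic reticulum, measured 54.6 to 78.6 FPKM in TPN and 82.4 to 112 FPKM in control (log2 fold change -0.50, limma adjusted p = 0.434). Msrb2, a mitochondrial methionine sulfoxide reductase, was lower too without overlap (log2 fold change -0.37, limma adjusted p = 0.463).

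Of 14 peroxisomal genes, 13 were lower in TPN on average, none passed, and the median log2 fold change was -0.16. Without TPN 1, 8 of the 14 were negative. Pex5, the receptor that imports catalase, measured 9.76, 10.6 and 15.4 FPKM in TPN 1, 2 and 3, against 16.8, 15.6 and 21.02 FPKM in control 1, 2 and 3 (log2 fold change -0.56, limma adjusted p = 0.378). It was the 1 gene of the 14 that was lower without overlap, beside 9.09% of all features. Pipox, an oxidase of pipecolic acid and sarcosine, had a log2 fold change of -0.83 (limma adjusted p = 0.483). Those of Pex6 and Abcd3, an assembly factor and a fatty acid importer, were -0.23 and -0.25 (limma adjusted p = 0.686 and 0.713).

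Sod1 and Sod2 encode the cytosolic copper-zinc and the mitochondrial manganese superoxide dismutase. Sod1 (ENSRNOG00000002115) measured 331, 435 and 496 FPKM in TPN 1, 2 and 3, against 646, 673 and 633 FPKM in control 1, 2 and 3. Every TPN rat lay below every control rat, and the controls agreed within 1.06-fold. Means were 421 ± 83.3 FPKM in TPN and 651 ± 20.6 FPKM in control (SD, n = 3 each), so the control level was 1.55-fold that of TPN. The log2 fold change was -0.65 (SE 0.23, 95% interval -1.17 to -0.12, unadjusted p = 0.022, limma adjusted p = 0.352). With 1 rat left out it ran from -0.78 to -0.49. After quantile normalisation it was -0.37.

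Sod2 (ENSRNOG00000019048) measured 112, 50.7 and 85.1 FPKM in TPN 1, 2 and 3, against 51.5, 49.6 and 52.2 FPKM in control 1, 2 and 3. TPN 1 and TPN 3 lay above all controls, which agreed within 1.05-fold, while TPN 2 lay within the control range. Its log2 fold change was 0.61 (SE 0.28, 95% interval -0.042 to 1.27, limma adjusted p = 0.470). It was 0.22 with sample weights, 0.36 without TPN 1 and 0.92 without TPN 2. Of the features averaging 5 FPKM or more, 4.08% varied less among the controls and 88.4% varied less among the TPN rats. For Sod1 these shares were 6.07% and 54.7%.

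**Figure D3:**
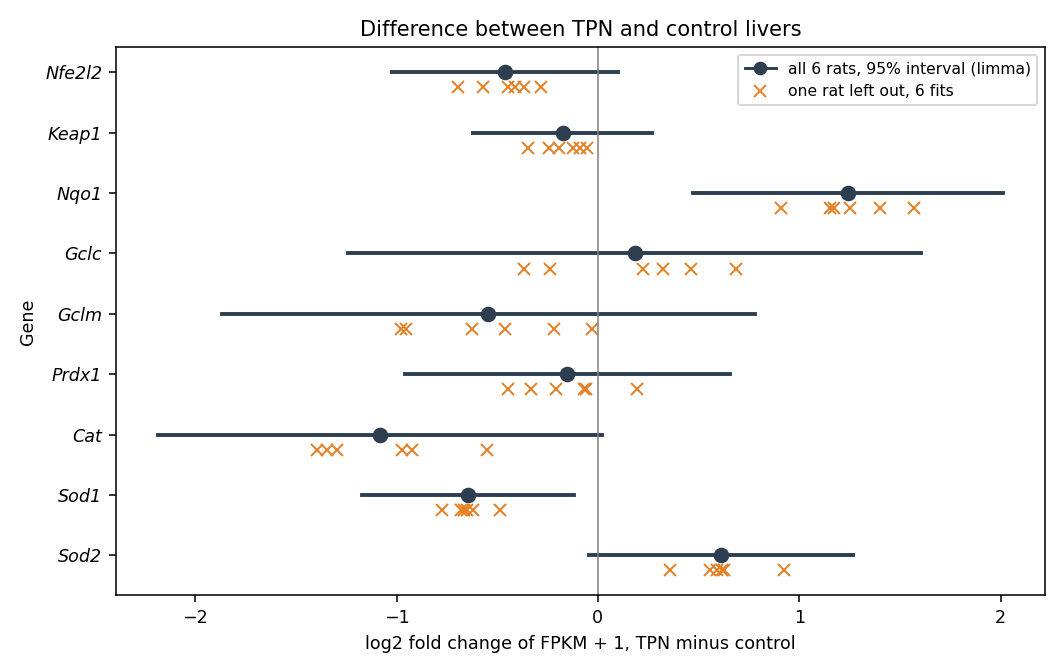
Log2 fold change (TPN minus control, on the log2(FPKM + 1) scale) of the 9 genes with 95% limma intervals from all 6 rats, and crosses for the 6 fits that leave out 1 rat each. Only the intervals of Nqo1 and Sod1 leave out 0, and the crosses of Gclc and Prdx1 fall on both sides of it.

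A list of 8 further genes of superoxide removal and metal handling was tested gene by gene. Of these, 3 were positive and 5 negative, with a median of -0.11 and none past the threshold. Sod3, the extracellular dismutase, measured 8.11, 9.27 and 5.18 FPKM in TPN 1, 2 and 3, against 13.5, 11.4 and 10.2 FPKM in control 1, 2 and 3. It was the 1 gene of the 8 that was lower without overlap, beside 9.09% of all features (log2 fold change -0.60, limma adjusted p = 0.368). Ccs, the chaperone that loads copper into SOD1, measured 25.4, 42.02 and 45.6 FPKM in TPN 1, 2 and 3, against 54.1, 34.8 and 54.97 FPKM in control 1, 2 and 3 (log2 fold change -0.35, limma adjusted p = 0.683). Slc31a1, the copper importer, had a log2 fold change of -0.34 (limma adjusted p = 0.574) and Cp, the copper-carrying plasma protein ceruloplasmin, 0.94 (limma adjusted p = 0.599).

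NF-kB, an inflammatory transcription factor, is known to raise Sod2. Of 12 genes on the NF-kB list, 10 were tested. All 10 had positive log2 fold changes, with a median of 0.18 and none past the threshold or without overlap. Without the filter, 11 of the 12 were positive and the median was 0.14. Of all features tested, 49.1% had a log2 fold change below 0. Relb, Bcl3, Nfkb2 and Nfkb1, subunits and partners of NF-kB, had log2 fold changes of 0.50, 0.97, 0.22 and 0.17 (limma adjusted p = 0.510, 0.574, 0.671 and 0.725). Relb measured 2.21, 2.13 and 2.02 FPKM in TPN 1, 2 and 3, against 0.772, 2.38 and 0.803 FPKM in control 1, 2 and 3. The part of NF-kB in the Sod2 levels was not tested. Of the 8 tested genes for enzymes that make oxidants or for their subunits, 6 were positive, with a median of 0.27 and none past the threshold. Most of these 6 encode parts of the phagocyte NADPH oxidase, so they do not stand for separate enzymes. Without the filter, 8 of 13 genes were positive and the median was 0.0998. Cybb, the catalytic subunit of the phagocyte NADPH oxidase, measured 22.95, 16.2 and 14.01 FPKM in TPN 1, 2 and 3, against 10.8, 16.6 and 9.85 FPKM in control 1, 2 and 3 (limma adjusted p = 0.510). Rac2 and Cyba, of the same oxidase, had log2 fold changes of 0.56 and 0.35 (limma adjusted p = 0.623 and 0.600), and Aox1, an aldehyde oxidase, -0.92 (limma adjusted p = 0.617).

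**Figure D4:**
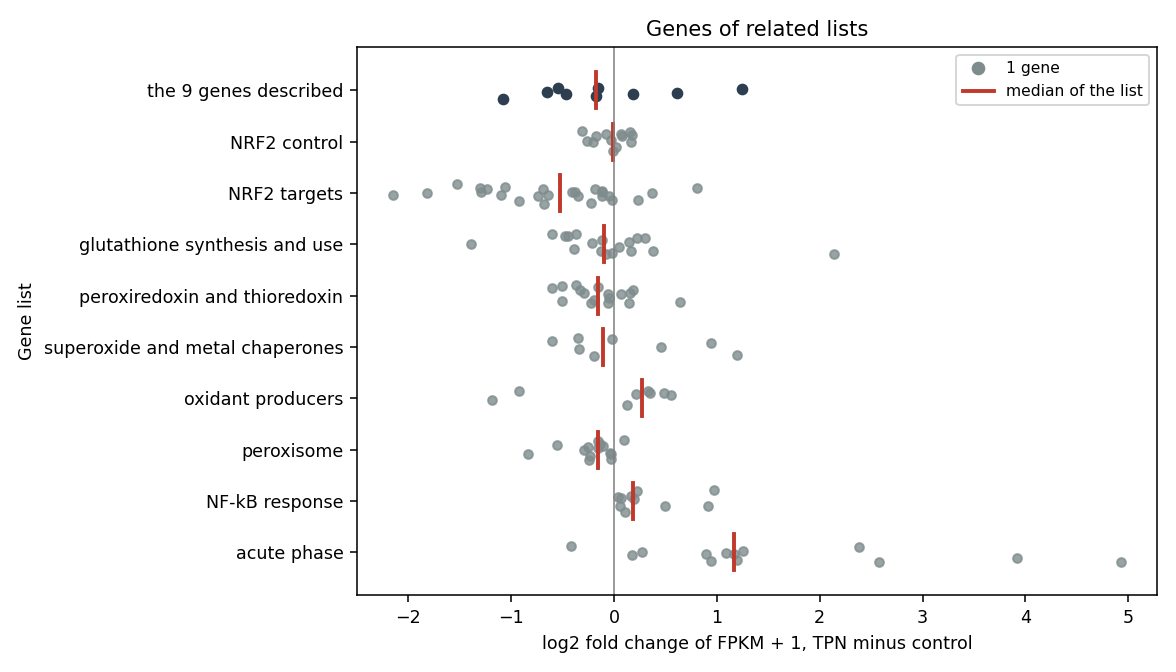
Log2 fold changes (TPN minus control, log2(FPKM + 1) scale) of the tested genes of 9 related lists in grey and of the 9 genes described in dark blue at the top, with a red bar at each median. The NRF2 target list has a median of -0.52 and the acute-phase list of 1.16, and the other medians lie between -0.18 and 0.27.

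The rats that stood low or high were largely the same from gene to gene. TPN 1 was the lowest TPN rat in 8 of the 9 genes, all but Sod2, where it was the highest, and TPN 3 was the highest in 7. Control 2 was the lowest control in 6 of the 9. These shares are to be read beside all features tested, of which 49.3% had TPN 1 lowest, 56.9% TPN 3 highest and 51.6% control 2 lowest. TPN 1 and control 2 were also the rats with the highest acute-phase level of their groups, and the part of inflammation in these differences was not tested. Summed over the 9 genes, the level was 940.0, 1518.5 and 1917 FPKM in TPN 1, 2 and 3, against 2203, 1668 and 2294 FPKM in control 1, 2 and 3. TPN 3 lay above control 2.

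**Figure D5:**
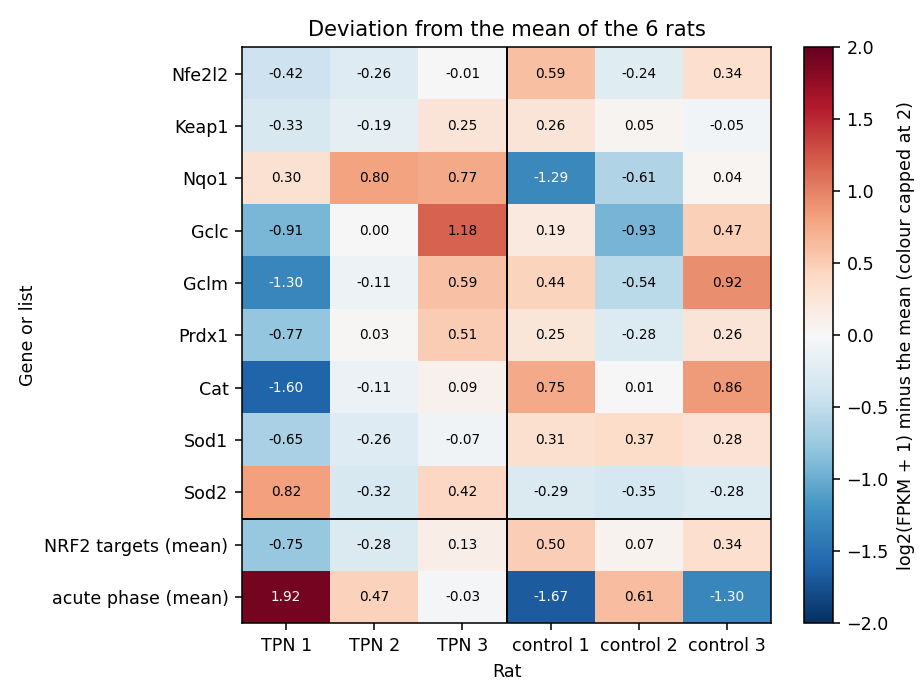
Deviation of each rat from the mean of the 6 rats, on the log2(FPKM + 1) scale, for the 9 genes, and below the line for the means of the NRF2 target and acute-phase lists, with red above and blue below the mean. TPN 1 is low in all genes except Nqo1 and Sod2 and lowest in the NRF2 target mean (-0.75), and has the highest acute-phase mean (1.92).

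Markers of cell types were compared as well, and only erythroid markers passed the threshold in the main comparison. In whole liver, fewer cells of a type and less RNA per cell cannot be told apart. Red cell precursors and red cells are rich in catalase and superoxide dismutase, and all 5 measured erythroid markers were lower in TPN without overlap, 4 of them (Hba-a1, Hba-a2, Hbb and Alas2) past the threshold, beside 9.09% and 0.22% of all features. With 1 rat left out, 4 passed without TPN 1, 2 without control 2, and 0 without TPN 2, TPN 3, control 1 or control 3. The 4 calls also fell to 1 (Hbb) with a pseudocount of 0.1, a mean of at least 5 FPKM or plain moderation, to 2 after TPM scaling, and to 0 with a pseudocount of 0.01, no filter, median-ratio scaling or quantile normalisation. Globin genes have near-identical copies that can share reads. The summed level of the erythroid markers was 230 to 577 FPKM in TPN and 2124 to 2416 FPKM in control. No erythroid marker was at 0 in any rat. Of 6 Kupffer cell markers 5 were positive and 3, Marco, Cd68 and Cd163, were higher without overlap, beside 8.02% of all features, with none past the threshold. Clec4f was negative, with 80.5 to 90.9 FPKM in TPN and 83.8 to 135 FPKM in control (log2 fold change -0.28, limma adjusted p = 0.676). Vsig4 and Csf1r overlapped, with log2 fold changes of 0.30 and 0.068. The sum of the 6 was 277 to 402 FPKM in TPN and 214 to 324 FPKM in control. Of 5 neutrophil markers 2 were tested, both positive, and the sum was 14.01 to 40.9 FPKM in TPN and 5.71 to 24.9 FPKM in control. Mpo and Elane, which define early neutrophils, were at 0 to 0.142 FPKM and 0 to 0.134 FPKM over the 6 rats. Of 6 hepatocyte markers 3 were positive and 3 negative, with Ttr lower without overlap, beside 9.09% of all features, and the sum was 27753 to 51145 FPKM in TPN and 46381 to 65528 FPKM in control. All 4 tested stellate markers and both tested cholangiocyte markers were negative, 2 of each without overlap, beside 9.09% of all features, and none passed. Endothelial markers, 2 positive of 3, did not separate the groups, and the 6 T and B cell markers lay below the level tested. The part of these cells in the differences above was not tested.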

How the data were processed

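RNA-seq of liver from 3 TPN and 3 control rats was used, grouped by their titles. The authors deposited 1 expression table in FPKM, scaled for transcript length and library total, so the number of reads and the depth per rat are unknown. Per the submitters' processing notes, Bowtie 0.12.2, Cufflinks and the build Rnor_6.0 were used, in roles not given in the sources used here. Strandedness and the treatment of shared reads are likewise not given. Nothing says whether rats of a group shared a litter or a library batch.

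Features averaging 1 FPKM or more were tested as log2(FPKM + 1) with limma 3.58.1 (R 4.3.3, trend and robust moderation, group as the only term, 2-sided p, Benjamini-Hochberg over all 11362 features, threshold 0.05). This scale understates changes of low genes. Folds are ratios of mean FPKM. Ratios between members were tested by exact permutation. The fit was tested on simulated data. The members and the 17 lists (189 entries, matched by symbol, then by older symbols in the RefSeq table of GRCr8) were chosen with earlier results of these data known, and the motif was chosen later. Of each list, genes past the threshold and those with the smallest p, up to 4, were named, besides all members and the 5 genes most like the member of smallest p. Figures were drawn with matplotlib 3.10.9.

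The comparison was repeated with a pseudocount of 0.1 or 0.01, with filters of 0.1 or 5 FPKM or none, and after median-ratio, quantile or TPM scaling. It was also refitted with plain moderation, with sample weights, with replicate number as a block, with rows sharing a symbol summed, and without each rat or without TPN 1 and control 2.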

Additional observations from a re-analysis of the deposited data

How the results depend on the processing

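None of the 9 genes passed the threshold of limma's adjusted p in any of the 19 alternatives, and their median log2 fold change stayed negative, from -0.45 to -0.030 with 1 rat left out. Nqo1, Sod2, Nfe2l2, Keap1, Gclm, Cat and Sod1 kept their sign in all 19. The count of features past the threshold, 28, was 18 and 5 with pseudocounts of 0.1 and 0.01, 6 with a mean of at least 5 FPKM, 8 without trend and robust settings, 299 with sample weights, 121 without TPN 1 and control 2, and 0 to 46 with 1 rat left out (0 without TPN 3, 1 without TPN 2, 3 without control 1, 6 without control 3 and 46 without control 2). The limma count of 0 stood beside 1898 features at unadjusted p under 0.05 with no filter, 1579 after median-ratio scaling, 1591 after quantile normalisation and 1393 without TPN 3. Members higher without overlap numbered 2 after median-ratio scaling and after quantile normalisation (Nqo1 and Sod2), and 1 to 2 with 1 rat left out. Members lower without overlap numbered 3 after median-ratio scaling (Nfe2l2, Cat and Sod1), 2 after quantile normalisation (Nfe2l2 and Sod1), 3 without TPN 1 and control 2, and 1 to 4 with 1 rat left out. The share of all features without overlap was not counted in these alternatives. Fewer rats also separate more easily by chance, so these counts are no result about the members. Prdx1 turned positive after quantile normalisation (0.038), without TPN 1 and control 2 (0.016) and without TPN 1 (0.19), ranging from -0.45 to 0.19 with 1 rat left out. Gclc turned negative with sample weights (-0.14), ranging from -0.36 to 0.68 with 1 rat left out. With 1 rat left out, Gclm ran from -0.98 to -0.030, Keap1 from -0.35 to -0.057, Nfe2l2 from -0.70 to -0.28, Cat from -1.40 to -0.55 and Sod2 from 0.36 to 0.92, with 0.22 for Sod2 under sample weights. Of the lists without a call, Abcc2, Abcc3, Gpx1, Marco and Lrat passed with sample weights, Hmox1 and Lbp without control 2, and Hmox1, Gpx1, Ttr, S100a9, Lrat and 7 acute-phase genes without TPN 1 and control 2. The cause of these changes was not tested. Control 2 held the highest control value of Hmox1 and Lbp, so leaving it out widens their difference by itself.

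With the replicate number as a block the count was 58, and no member passed. Rats of the same number deviated with correlations of -0.21, -0.14 and 0.32 for numbers 1, 2 and 3. Rats of different numbers had correlations from -0.35 to 0.42. These few values show no pairing by number, but cannot exclude a shared batch or pairing. Both ratios kept their sign in every alternative run for them, Gclm over Gclc from -0.88 to -0.64 and Keap1 over Nfe2l2 from 0.15 to 0.50 with 1 rat left out. The depth is unknown, and with 3 rats per group the 95% intervals of Gclc (-1.24 to 1.60) and Gclm (-1.87 to 0.78) are wide.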
